A study of Homo sapiens with 4 samples.

Results

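The 42 transcripts described here are the genes of the 4 human HOX clusters and 3 long noncoding RNAs (lncRNAs) of those clusters, taken out of the 62700 Ensembl gene identifiers counted in HEK293T cells. The rule uses names alone: every protein-coding gene whose symbol is HOXA, HOXB, HOXC or HOXD followed by digits, which gave 11 HOXA, 10 HOXB, 9 HOXC and 9 HOXD genes, plus HOTAIR, HOTTIP and HOTAIRM1. The T4A group (2 libraries) was HEK293T cells transiently transfected with an α-amanitin-resistant RPB1 in which Thr4 of every repeat of the C-terminal domain (CTD) was replaced by Ala. The WT group (2 libraries) carried the same resistant RPB1 with a wild-type CTD. RPB1 is the largest subunit of RNA polymerase II (Pol II), and its CTD is a tail of heptad repeats whose phosphorylation changes along a gene. In both groups α-amanitin was given at 2.5 µg/ml for 48 hours, beginning 1 day after transfection, to remove the endogenous RPB1, so the WT cells had undergone transfection and the drug as well, and untreated cells were not analysed here. According to the study's methods the replicates were biological, while the labels only number them. The p-values below set the difference between the groups against the spread between libraries of a group, with error estimates shared across genes.

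HOX genes encode homeodomain transcription factors that give the body axis its identity from head to tail. Each cluster holds its genes in a fixed order of paralog groups: those with low numbers (anterior) are used in front and early, and those with high numbers (posterior, here paralog groups 9 to 13) act in the trunk, the limbs and the urogenital tract. In differentiated cells, Polycomb complexes keep unused parts of a cluster silent, and trithorax complexes such as those of KMT2A keep used parts active. HEK293T is a line made from human embryonic kidney cells, and kidney tissue is known for the use of posterior HOX genes. The cluster lncRNAs lie within or beside the coding genes: HOTTIP is transcribed away from HOXA13 at the posterior end of HOXA, HOTAIRM1 lies at the anterior end of the same cluster, and HOTAIR lies in the posterior part of HOXC.

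The start of 1 gene pair is shown because both of its genes were lower in T4A cells. HOXA13 (minus strand) and HOTTIP (plus strand) are transcribed in opposite directions on chromosome 7 from RefSeq starts that lie 330 bases apart (GRCh38.p14). The windows span 250 bases before to 50 after each start, at chr7:27200042-27200341 for HOXA13 and chr7:27200171-27200470 for HOTTIP. Capitals mark the 171 bases that both windows hold, read from opposite strands. The window of HOXD13, the HOX gene with the second highest level, is shown as the contrast of a strongly transcribed posterior gene (chr2:176092471-176092770, plus strand), and there capitals mark a TATAAA.
HOXA13: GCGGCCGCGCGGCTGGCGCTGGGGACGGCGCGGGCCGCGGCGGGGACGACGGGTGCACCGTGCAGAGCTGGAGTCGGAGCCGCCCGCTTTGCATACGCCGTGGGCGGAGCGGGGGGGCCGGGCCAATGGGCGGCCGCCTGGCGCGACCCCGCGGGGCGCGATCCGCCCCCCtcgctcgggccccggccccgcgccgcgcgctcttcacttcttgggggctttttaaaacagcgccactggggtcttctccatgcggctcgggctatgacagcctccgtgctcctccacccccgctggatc
HOTTIP: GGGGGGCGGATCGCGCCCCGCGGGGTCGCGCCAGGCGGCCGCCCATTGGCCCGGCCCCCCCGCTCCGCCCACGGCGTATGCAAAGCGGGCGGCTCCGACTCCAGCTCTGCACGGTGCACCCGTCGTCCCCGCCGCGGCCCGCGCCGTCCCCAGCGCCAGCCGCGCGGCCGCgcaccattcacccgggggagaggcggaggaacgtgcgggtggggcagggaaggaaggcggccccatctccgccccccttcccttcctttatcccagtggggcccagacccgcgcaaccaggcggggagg
HOXD13: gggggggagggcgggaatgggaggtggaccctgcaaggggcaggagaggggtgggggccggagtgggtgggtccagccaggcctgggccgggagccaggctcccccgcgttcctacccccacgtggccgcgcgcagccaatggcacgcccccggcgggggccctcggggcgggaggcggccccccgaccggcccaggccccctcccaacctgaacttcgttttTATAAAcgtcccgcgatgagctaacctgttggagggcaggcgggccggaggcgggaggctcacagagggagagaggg
These are RefSeq sequences. The shared stretch holds a CCAAT (read as ATTGG on the HOTTIP strand), and neither window holds TATAAA on either strand. RefSeq windows were at hand for 21 of the 42 genes. They made 27 distinct windows, as HOXA3 and HOXA10 have several starts and HOXC4 and HOXC5 share one. CCAAT was found on either strand in 18 of these 27 windows (66.7%), against 34.6% of the 34943 windows of all genes. TATAAA was found in 5 of 27 (18.5%), against 11.6% of all, and TGATNNAT, a spaced pattern searched for as a HOX and PBX sequence, in 3 of 27 (11.1%), against 7.42% of all. The HOX windows held a median of 23 CpG dinucleotides, against 14 over all windows, at a similar GC content (58.0% against 58.7%). Each pattern was counted on its own, whatever other pattern overlapped it. Neighbouring HOX windows are related by descent, so the shares describe these windows only.

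The libraries held 23465029 and 19257217 counts in T4A and 33063535 and 24695291 counts in WT. HOX transcripts took up 8823 and 7641 of them in T4A and 13123 and 9936 in WT, or 376 and 397 CPM (counts relative to a common library total, here the raw one) in T4A and 397 and 402 CPM in WT. All CPM values after these use TMM-scaled library sizes. On that scale the HOX transcripts summed to 389 and 406 CPM in T4A and 391 and 388 CPM in WT. POLR2A, the gene for RPB1, had 5428 ± 70.5 CPM in T4A and 3268 ± 713 CPM in WT (SD, n = 2 each). It was higher in T4A by 0.73 ± 0.08 on the log2 scale (SE; edgeR quasi-likelihood test, Benjamini-Hochberg adjusted p = 7.23e-07), and the counts do not tell the construct from the endogenous gene. Whether this difference bears on any HOX transcript was not tested. Of 8 markers of HEK293T cells, 7 were detected and LHX1 had no counts in T4A and 0 and 2 counts in WT. The 13 markers of other cell types that were found summed to 35.0 and 40.2 CPM in T4A and 38.5 and 42.7 CPM in WT, mostly from COL1A1, while PTPRC, CD3E, HBB and CDH5 had 4 counts or fewer in each library. RING1, RXRB and PAX8 were listed at 0 in all 4 libraries. The sources used here do not state how fragments with several possible positions were treated, and a listed 0 is not read as absence.

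Levels between genes were compared as CPM per kilobase of annotated exon (RPKM, with TMM-scaled library sizes). HEK293T cells of both groups transcribed all 4 clusters. Counts were above 0 in all 4 libraries for 40 of the 42 transcripts and at least 10 in all 4 for 37, and 30 had a mean level of 1 RPKM or more. A single gene stood far above the rest. HOXB9, a posterior gene of the HOXB cluster with 2600 and 2126 counts in T4A and 3608 and 2664 counts in WT, reached 44.3 and 43.7 RPKM in T4A and 41.6 and 40.2 RPKM in WT. It took 29.5% of all HOX counts in T4A replicate 1 (95% Wilson interval 28.5 to 30.4%) and 27.8% in T4A replicate 2 (26.8 to 28.8%), against 27.5% (26.7 to 28.3%) and 26.8% (26.0 to 27.7%) in WT. These intervals cover counting error only. HOXD13, which patterns digits and the genital region, was next with 11.7 and 14.2 RPKM in T4A and 14.8 and 13.9 RPKM in WT.

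**Figure D1:**
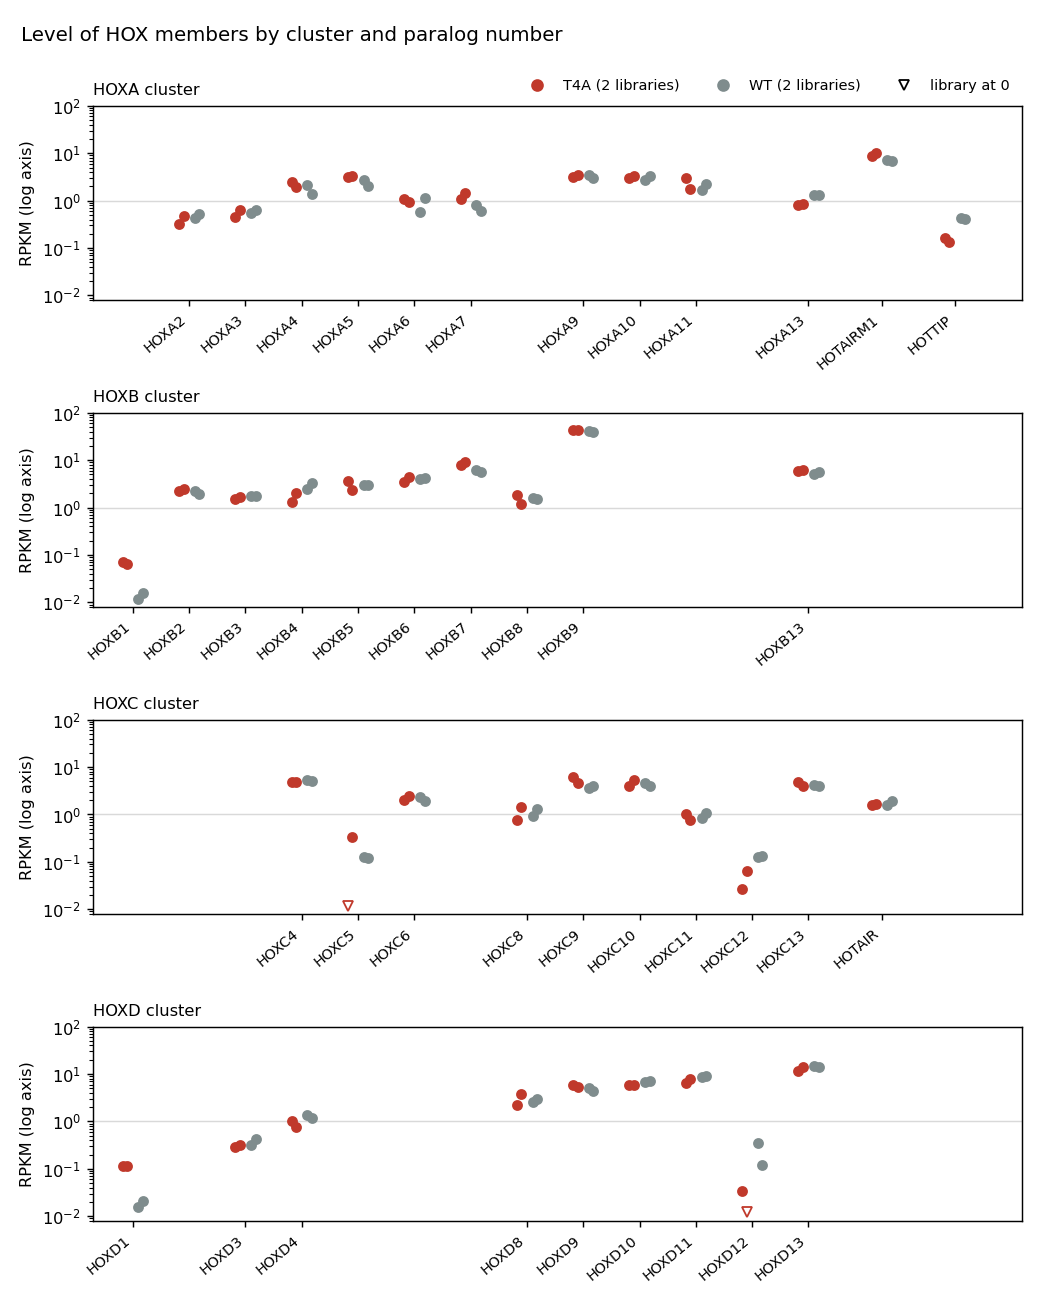
Level of 41 of the 42 HOX transcripts in RPKM (log axis) by cluster and paralog number, with the lncRNAs at the right, 1 point per library (T4A left, WT right of each pair, n = 2 each) and open triangles for libraries at 0. HOXB9 is the highest, at 40.2 to 44.3 RPKM, and HOXB1, HOXD1, HOXC12, HOXD12 and HOXC5 lie at the bottom, all with means under 0.15 RPKM.

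Below these came HOTAIRM1 (mean of the 4 libraries 8.28 RPKM), HOXD11 (7.94), HOXB7 (7.13), HOXD10 (6.49), HOXB13 (5.67), HOXD9 (5.11) and HOXC4 (5.06), so that 9 transcripts exceeded 5 RPKM. Of the 41 pairs of neighbours in the order of levels, only 3 had library ranges that did not overlap at this exonic length. These were HOXB9 above HOXD13, HOXD13 above HOTAIRM1, and HOXB6 (4.08 RPKM) above HOXA9 (3.26 RPKM). The other 38 pairs of direct neighbours overlapped, so their order is not resolved by these libraries. The orders of HOXD13 with HOTAIRM1 and of HOXB6 with HOXA9 also depend on the length used. The longest transcript of HOTAIRM1 has 889 bases, against 1496 of annotated exon, while HOXD13 has 2416 by both. For HOXB6 these lengths are 1960 and 2604 bases, and for HOXA9 2064 and 3033. Levels by longest transcript were not ranked. At the bottom stood HOXB1 at 0.041 RPKM, HOXD1 at 0.067, HOXC12 at 0.088, HOXD12 at 0.126 and HOXC5 at 0.145. HOXC5 (67.3%) and HOXD1 (60.1%) share much of their annotated exons with other genes, which leaves their levels uncertain.

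Levels followed position within the clusters. The 16 posterior genes (paralog groups 9 to 13) summed to 106 ± 0.73 RPKM in T4A and 104 ± 0.72 RPKM in WT (SD, n = 2 each). The 15 central genes (groups 4 to 8) summed to 38.4 ± 2.19 RPKM in T4A and 35.8 ± 0.60 RPKM in WT, and the 8 anterior genes (groups 1 to 3) to 6.92 ± 0.36 RPKM in T4A and 7.22 ± 0.27 RPKM in WT. The median gene was at 4.37 RPKM in the posterior set, 2.15 in the central set and 0.50 in the anterior set, so the order of the sets did not rest on HOXB9 alone. Among single paralog groups, group 9 summed to 58.2 ± 1.70 RPKM in T4A and 52.6 ± 1.28 RPKM in WT, and group 13 to 24.1 ± 1.50 RPKM in T4A and 25.1 ± 0.42 RPKM in WT. Group 12, which has only HOXC12 and HOXD12, was the exception among posterior groups, with 0.063 ± 0.003 RPKM in T4A and 0.364 ± 0.157 RPKM in WT.

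The clusters differed in how this gradient ran. HOXB was the highest in sum, with 72.6 ± 0.75 RPKM in T4A and 67.6 ± 0.67 RPKM in WT, of which HOXB9 made up more than any other gene. HOXD followed with 35.7 ± 3.14 RPKM in T4A and 39.6 ± 0.29 RPKM in WT, most of it from HOXD9, HOXD10, HOXD11 and HOXD13. Its anterior genes HOXD1 and HOXD3 together reached only 0.416 ± 0.019 RPKM in T4A and 0.392 ± 0.087 RPKM in WT. HOXC summed to 23.6 ± 0.07 RPKM in T4A and 22.0 ± 0.31 RPKM in WT and HOXA to 19.8 ± 0.54 RPKM in T4A and 18.2 ± 0.33 RPKM in WT. HOXA was the flattest cluster, its coding genes lying between 0.44 (HOXA2) and 3.26 RPKM (HOXA9). In HOXA the most abundant transcript was the lncRNA HOTAIRM1, at 8.63 and 10.3 RPKM in T4A and 7.16 and 6.99 RPKM in WT. HOTAIR, the HOXC lncRNA known for its contacts with chromatin modifiers, had 1.60 and 1.67 RPKM in T4A and 1.57 and 1.92 RPKM in WT.

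Next, T4A was compared with WT, which asks how loss of the phosphorylatable Thr4 bears on transcript levels. The fit covered the 18139 genes that passed edgeR's filter on low counts, and a call means an adjusted p under 0.05 over all of them. Of the 42 HOX transcripts 38 were tested, and 5 of these (13.2%) were called, against 4286 or 23.6% of all genes. Higher in T4A were HOXB7 and HOTAIRM1, 2 of 38 (5.26%), against 10.7% of all genes. Lower in T4A were HOTTIP, HOXB4 and HOXA13, 3 of 38 (7.89%), against 13.0% of all genes. The median log2 fold change was -0.03 over the HOX transcripts and -0.01 over all genes, with 18 HOX transcripts above 0 and 20 below. In 33 of the 38 the change was under 1.5-fold, and the median SE was 0.22 over the HOX transcripts and 0.22 over all genes. The libraries of the 2 groups did not overlap for 19 of the 38 (50%), 9 above and 10 below WT, against 59.0% of all genes. The shares called among the HOX transcripts thus lay below those over all genes in both directions, and this was not tested. The median of the HOX transcripts changed sign with upper-quartile scaling (0.05) and without T4A replicate 1 (0.05), and it was -0.11 with library totals and -0.12 with a trend of fold change with exonic length removed.

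**Figure D2:**
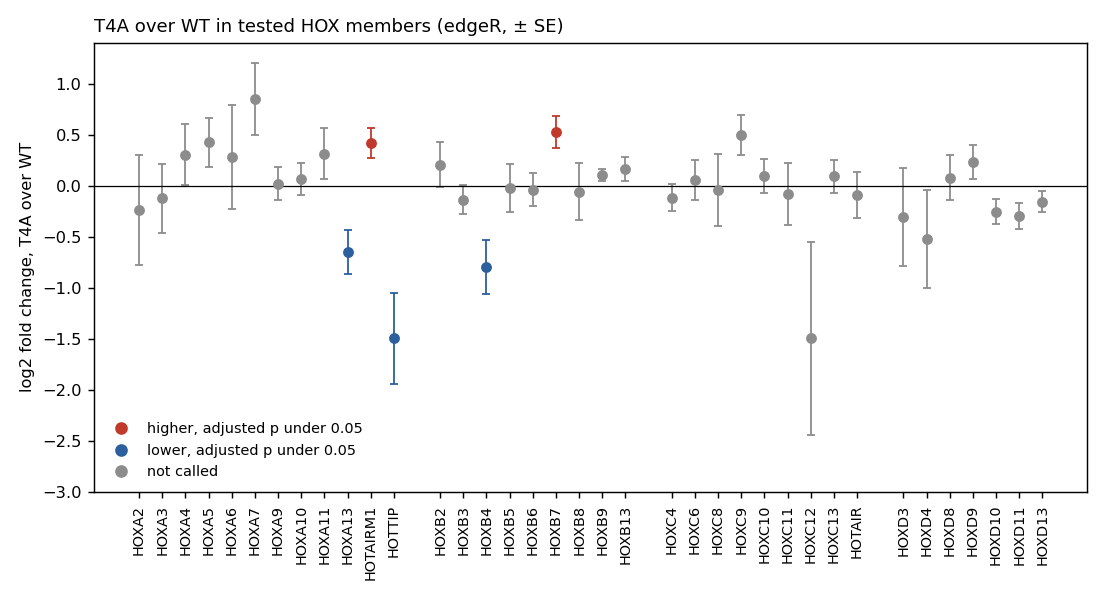
Log2 fold change, T4A over WT, with its SE for 37 of the 38 tested HOX transcripts by cluster and paralog number (edgeR, n = 2 libraries each). The 2 called higher are HOXB7 (0.52) and HOTAIRM1 (0.42), the 3 called lower are HOTTIP (-1.50), HOXB4 (-0.80) and HOXA13 (-0.65), and HOXC12 (-1.50) has an SE of 0.95.

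The posterior tip of the HOXA cluster was lower in T4A cells. HOTTIP, the lncRNA known to bring WDR5 and KMT2A complexes to posterior HOXA genes, had 19 and 13 counts in T4A and 75 and 54 counts in WT, or 0.84 and 0.69 CPM in T4A and 2.24 and 2.11 CPM in WT. Both T4A libraries lay well below both WT libraries, and the fall was 2.82-fold, at a log2 fold change of -1.50 ± 0.45 (edgeR, adjusted p = 0.0183). In bulk RNA, fewer cells that use a gene and less RNA per cell cannot be told apart. Its neighbour HOXA13, a regulator of digit and genitourinary development, had 91 and 83 counts in T4A and 222 and 169 counts in WT (4.01 and 4.41 CPM in T4A, 6.62 and 6.60 CPM in WT). The groups again did not overlap, with a 1.57-fold fall and a log2 fold change of -0.65 ± 0.22 (edgeR, adjusted p = 0.0354). HOTTIP had the larger fall by point estimate. The RPKM ratio of HOTTIP to HOXA13 within a library was 0.208 and 0.156 in T4A and 0.337 and 0.319 in WT. The 95% intervals of the log2 fold changes of HOTTIP (-2.43 to -0.56) and HOXA13 (-1.11 to -0.19) overlapped, and the difference was not tested. Their annotated exons share only 1.69% of HOTTIP and 1.70% of HOXA13. The next HOXA genes were not called. HOXA11, needed for kidney and limb formation, stood at 0.31 ± 0.25 (adjusted p = 0.432, but 0.0333 without T4A replicate 2), HOXA10 at 0.06 ± 0.16 and HOXA9 at 0.02 ± 0.16. Both calls ended when either WT library was left out. With WT replicate 1 removed, edgeR gave HOTTIP an adjusted p of 0.133 and HOXA13 one of 0.184. With WT replicate 2 removed, the values were 0.0784 for HOTTIP and 0.153 for HOXA13. HOXA13 also lost its call without T4A replicate 1 (adjusted p = 0.0820).

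Within HOXB, genes of the central part went opposite ways. HOXB4, known for its use in expanding blood stem cells, had 59 and 77 counts in T4A and 169 and 168 counts in WT (2.60 and 4.09 CPM in T4A, 5.04 and 6.56 CPM in WT). It fell 1.74-fold, at a log2 fold change of -0.80 ± 0.27 (edgeR, adjusted p = 0.0346), and although the groups did not overlap, the gap between them was smaller than the gap within either group. HOXB7, a central gene often studied in cancer cells, had 272 and 256 counts in T4A and 312 and 216 counts in WT (12.0 and 13.6 CPM in T4A, 9.30 and 8.43 CPM in WT). It rose 1.44-fold, at 0.52 ± 0.16 (edgeR, adjusted p = 0.0184). The RPKM ratio of HOXB4 to HOXB7 was 0.165 and 0.228 in T4A and 0.411 and 0.591 in WT, so the order of these genes was kept while the gap widened in T4A. HOXB5 and HOXB6, which lie between them, stood at -0.02 ± 0.23 and -0.04 ± 0.16. The call of HOXB4 was lost without T4A replicate 1 (adjusted p = 0.185) and without WT replicate 2 (0.284). That of HOXB7 was lost without T4A replicate 2 (0.0719), WT replicate 1 (0.0506) or WT replicate 2 (0.165).

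HOTAIRM1, a lncRNA of myeloid and neuronal differentiation, was the other transcript that rose. It had 293 and 291 counts in T4A and 359 and 268 counts in WT, or 12.9 and 15.5 CPM in T4A and 10.7 and 10.5 CPM in WT. The rise was 1.34-fold, at 0.42 ± 0.15 (edgeR, adjusted p = 0.0454), the weakest of the 5 calls by adjusted p. It was lost without T4A replicate 2 (adjusted p = 0.238), WT replicate 1 (0.153) or WT replicate 2 (0.200). Upper-quartile scaling ended the calls of HOXA13 and HOXB4, and removal of the length trend those of HOXA13, HOXB7 and HOTAIRM1. HOTAIRM1 was also not called with library totals or with no filter on low counts. Of the 5 calls, HOTTIP, HOXB4 and HOXA13 also passed a 1.5-fold change. DESeq2, run as the other tool, called HOXB7 alone among the HOX transcripts (adjusted p = 0.0329) and gave HOTTIP no adjusted p.

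**Figure D3:**
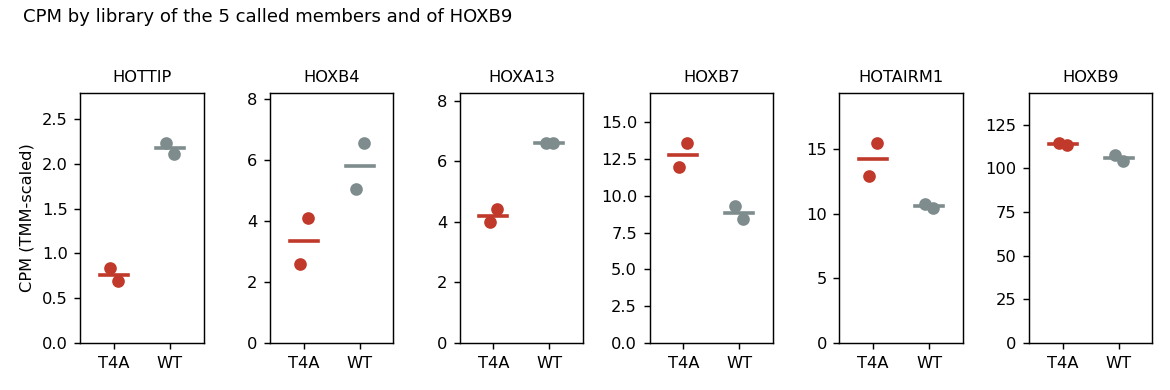
CPM by library (points) and group mean (lines) of the 5 HOX transcripts that differed between T4A and WT and of HOXB9, on linear axes from 0. HOTTIP lies at 0.69 to 0.84 CPM in T4A and 2.11 to 2.24 CPM in WT, whereas HOXB9 lies at 113 to 115 CPM in T4A and 104 to 108 CPM in WT.

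HOXB9 itself was not called. Both T4A libraries lay above both WT libraries, at a log2 fold change of 0.11 ± 0.06 (edgeR, adjusted p = 0.214; 95% interval -0.02 to 0.23). All 4 genes of paralog group 9 were above 0, with HOXC9 at 0.50 ± 0.20 (adjusted p = 0.0731), HOXD9 at 0.23 ± 0.17 and HOXA9 at 0.02 ± 0.16, and none passed the test, HOXC9 alone having an unadjusted p under 0.05 (0.0193). HOXC9 was called without T4A replicate 2 (adjusted p = 0.00819). The values in group 9 moved with the scaling. With upper-quartile scaling HOXB9 (0.19, adjusted p = 0.0222) and HOXC9 (0.58, adjusted p = 0.0349) were called higher, whereas HOXB9 stood at -0.05 and HOXA9 at -0.10 with the length trend removed, and HOXA9 at -0.06 with library totals. In paralog group 7, HOXA7 accompanied HOXB7 with 60 and 66 counts in T4A and 65 and 37 counts in WT and a log2 fold change of 0.85 ± 0.35 (adjusted p = 0.0910, or 0.0434 without T4A replicate 1). The annotated exons of HOXA7 lie to 62.5% on those of the antisense HOXA-AS3. Alignment was done without strand, and no source used here states whether the counting took strand into account, which leaves the counts of the pair uncertain. The other central HOXA genes were also above 0 without passing the test: HOXA4 at 0.30 ± 0.30, HOXA5 at 0.42 ± 0.24 and HOXA6 at 0.28 ± 0.51. HOXA4 (47.8%) and HOXA6 (40.1%) also share annotated exons with HOXA-AS3 or other genes, so the same limit holds for them. HOXA5 shares none. Of the 42 HOX transcripts, 11 share over 20% of their exonic bases with another annotated gene. The anterior HOXA2 (-0.24 ± 0.54) and HOXA3 (-0.12 ± 0.34) lay below 0 within their errors.

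Of the posterior HOXD genes, which act in limb and urogenital development, HOXD10, HOXD11 and HOXD13 had log2 fold changes below 0, while HOXD9 lay above 0. HOXD10 had 332 and 278 counts in T4A and 572 and 464 counts in WT, at -0.26 ± 0.12 (edgeR, adjusted p = 0.147). HOXD11 had 312 and 309 counts in T4A and 609 and 483 counts in WT, at -0.30 ± 0.13 (adjusted p = 0.0979), and HOXD13 stood at -0.16 ± 0.10 (adjusted p = 0.301). No HOXD gene passed the test, while HOXD10 and HOXD11 had an unadjusted p under 0.05 (0.0489 and 0.0288). As a share of all HOX counts, HOXD10 to HOXD13 took 14.6% (95% Wilson interval 13.8 to 15.3%) and 16.1% (15.3 to 17.0%) in T4A. In WT they took 18.4% (17.7 to 19.0%) and 18.3% (17.6 to 19.1%), and both T4A shares lay below both WT shares. These intervals cover counting error only. This block leaves out HOXD9, which lay above 0. Its shares come from the same counts as the fold changes, so they are not separate evidence. HOXD10 and HOXD11 share annotated exons (18.2% of HOXD10, 21.4% of HOXD11), so their counts are not fully separate. HOXD13, HOXD10 and HOXD11 passed the test as lower once the trend of fold change with exonic length was removed (adjusted p = 0.0352, 0.0214 and 0.0113). Without T4A replicate 2 the log2 fold change was -0.30 for HOXD13 and -0.43 for HOXD11. HOXD11 also passed with library totals (adjusted p = 0.0410). The median exonic length was 2471 bases for all 42 HOX transcripts, tested or not, and 4481 bases for all tested genes. The part of length in these differences was not tested further.

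Paralog group 12 and the anterior ends were near the limit of detection. HOXD12, a posterior limb gene, had 2 and 0 counts in T4A and 30 and 8 counts in WT. Its depth-scaled ratio of T4A to WT was 0.0712 (95% exact interval 0.00832 to 0.275, counting error only), and the WT libraries differed widely from each other. It failed the filter on low counts. Without that filter edgeR gave -3.58 with an adjusted p of 0.0187. HOXC12 had 2 and 4 counts in T4A and 14 and 11 counts in WT, at -1.50 ± 0.95 (adjusted p = 0.294). HOXD1 and HOXB1, the most anterior genes of their clusters, had more counts in T4A, with 5 and 4 counts in T4A and 1 and 1 count in WT for HOXD1, and 4 and 3 counts in T4A and 1 and 1 count in WT for HOXB1. The ratio of T4A to WT was 6.08 (1.26 to 57.9) for HOXD1 and 4.73 (0.901 to 46.7) for HOXB1, and unfiltered adjusted p-values were 0.705 for HOXD1 and 0.767 for HOXB1. For HOXC5, T4A held 0 and 10 counts and WT held 7 and 5 counts, at a ratio of 1.13 (0.436 to 2.85). These 4 untested genes and HOXC12 together rest on few molecules.

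Among the remaining tested genes there was no call. In HOXB, the anterior HOXB2 stood at 0.21 ± 0.22 and HOXB3 at -0.14 ± 0.14, HOXB8 at -0.06 ± 0.28 and HOXB13, used as a prostate and distal colon marker, at 0.16 ± 0.12. In HOXC, HOXC4 stood at -0.12 ± 0.13, HOXC6 at 0.05 ± 0.19, HOXC8 at -0.04 ± 0.35, HOXC10 at 0.09 ± 0.17, HOXC11 at -0.08 ± 0.30, HOXC13 at 0.09 ± 0.16 and HOTAIR at -0.09 ± 0.22. In HOXD, HOXD3 stood at -0.31 ± 0.48, HOXD4 at -0.53 ± 0.48 and HOXD8 at 0.08 ± 0.22. All these errors are SE on the log2 scale, and adjusted p-values were 0.382 or more. For HOTAIR the 95% interval ran from -0.56 to 0.38 on the log2 scale, so a moderate change in either direction is within its error.

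Other transcripts of the clusters and the genes around them were set beside the HOX genes. Of 15 further cluster transcripts, mostly antisense, 13 were tested and HOXD-AS2 was called, higher at 0.55 ± 0.19 (edgeR, adjusted p = 0.0450). Its call was lost without T4A replicate 2, WT replicate 1 or WT replicate 2 (adjusted p = 0.141, 0.114 and 0.275). HAGLR, a lncRNA at the anterior end of HOXD, stood at -0.55 ± 0.21 (adjusted p = 0.0714). It was called lower with library totals (adjusted p = 0.0432), with no filter on low counts (0.0194) and without T4A replicate 2 (-1.03, adjusted p = 2.79e-05). The 3 nearest other coding genes on each side of each cluster made 24 flanking genes, of which 21 were tested, 3 were called higher and 6 lower (median -0.09, against -0.01 over all genes). The 3 that rose were ATP5MC1, ATP5MC2 and ATP5MC3 (0.40 ± 0.05, 0.41 ± 0.05 and 0.30 ± 0.04), paralogs that each encode subunit c of ATP synthase. They lie near HOXB, HOXC and HOXD, in that order. CBX5, the HP1α gene near HOXC, fell by 0.57 ± 0.08 on the log2 scale. In both sets, as in all lists below, the calls are to be read beside the 10.7% and 13.0% of all genes called higher and lower.

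The proteins that act with or on HOX genes were described from lists. Of 10 tested TALE homeodomain cofactors, 1 was called higher and 1 lower. MEIS3 was the one that rose (0.35 ± 0.09, edgeR adjusted p = 0.00958). Its call was lost without T4A replicate 2 or WT replicate 1 and with library totals. Of 31 tested Polycomb genes, 2 were called higher and 8 lower, with a median of -0.18. Among those lower were PHC1 (-0.66 ± 0.09), EZH1, a histone H3K27 methyltransferase (-0.70 ± 0.12), and RBBP4 (-0.28 ± 0.06), while EZH2, the other methyltransferase, stood at 0.06 ± 0.09 (called higher, adjusted p = 0.0196, with the length trend removed). PCGF2, a subunit of Polycomb repressive complex 1, was higher by 4.52 ± 0.39 (adjusted p = 4.88e-08), with 174 and 233 counts in T4A and 22 and 4 counts in WT. The number of lower Polycomb genes was 4 without WT replicate 1 and 4 with the length trend removed, which left RBBP4 uncalled and 4 genes higher. Without WT replicate 2 the number higher was 1.

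Of 16 trithorax and maintenance genes, 3 were called higher and 5 lower, again with a median of -0.18. ASH1L (-0.92 ± 0.13, edgeR adjusted p = 2.10e-05) and KMT2A (-0.78 ± 0.13, adjusted p = 0.000137), both histone methyltransferases known to maintain HOX transcription, fell most, and HCFC1 (-0.34 ± 0.07) and PSIP1 (-0.19 ± 0.05) fell less. The number higher was 1 without T4A replicate 1 or WT replicate 2 and 0 with library totals, and the number lower was 2 with the length trend removed. Of 11 tested upstream regulators, 3 were called, all lower: ALDH1A2, which makes retinoic acid (-0.52 ± 0.05, adjusted p = 3.31e-07), CYP26B1, which degrades it (-0.87 ± 0.25, adjusted p = 0.0163), and YY1 (-0.24 ± 0.06, adjusted p = 0.00876). RARG, a retinoic acid receptor, stood at -0.40 ± 0.16 (adjusted p = 0.0798, or 0.0364 with library totals and 0.0457 without T4A replicate 1). Without WT replicate 2 only ALDH1A2 was called lower, CYP26B1 also lost its call without WT replicate 1, and YY1 with upper-quartile scaling or with the length trend removed. Of 22 tested homeobox genes outside the clusters, NKX2-5 (0.47 ± 0.10) and MSX1 (0.50 ± 0.15) rose. MSX1 lost its call without WT replicate 1 and with library totals, and both lost it with the length trend removed. Of 11 tested kidney lineage factors, ITGA8 fell (-0.57 ± 0.14, adjusted p = 0.00370), and 3 were called without T4A replicate 1.

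**Figure D4:**
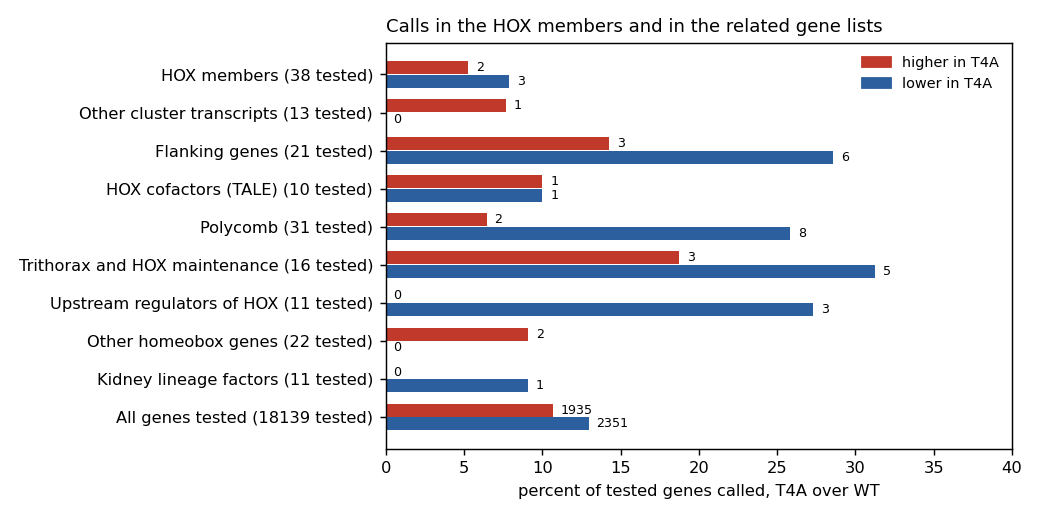
Percent of tested genes called higher (upper bar) and lower (lower bar) in T4A than in WT for the HOX transcripts, the related lists and all 18139 genes, with the number of called genes at each bar (edgeR, adjusted p under 0.05). HOX transcripts were called in 2 and 3 cases of 38, and trithorax genes in 3 and 5 of 16.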

How the data were processed

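Poly(A) RNA of HEK293T cells was sequenced in 2 T4A and 2 WT libraries. Each library's table, as deposited by the authors, gives unnormalized counts of the fragments assigned to each gene, 1 table per library. Per the submitters' processing notes they used Trimmomatic 0.38, HISAT2 2.2.1 and featureCounts 2.0.1 with hg38, and alignment was without strand. Names, exonic lengths, exon overlaps and the choice of flanking genes came from GENCODE release 44 (60877 of 62700 identifiers found), lifted to another build. No coordinate printed here was taken from it. Coordinates and sequences are from RefSeq, GRCh38.p14.

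Genes that passed filterByExpr (18139) were fitted with edgeR 4.0.16 in R 4.3.3 (TMM, quasi-likelihood test, group only, Benjamini-Hochberg over all genes tested). SE is the log2 fold change over the square root of F, and intervals on it use the fit's degrees of freedom. The fit was tested on simulated data. Every tested HOX transcript is named but 1, which is not reported here, and in each list up to 4 genes of smallest p, with the same exception (EZH2 and the genes listed at 0 were named after their values were seen). The HOX set and the lists were chosen with earlier results of these data known. Alternatives were DESeq2 1.42.0, other size factors, filters and lengths, a replicate block, removal of a length trend, and leaving out each library. Replicates of a group differed by more than sampling noise (chi-square per degree of freedom 4.56 in T4A and 5.66 in WT). With 2 libraries a group, precision is limited, and low counts limit it further.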

Additional observations from a re-analysis of the deposited data

How the results depend on the processing

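Of 459 values of single genes under 12 alternatives, 385 kept direction and side of the threshold, 23 calls were lost, 11 were gained, 40 uncalled values changed sign and no call reversed. HOX transcripts called higher numbered 4 with upper-quartile scaling, 1 with library totals, 1 with no filter, 0 with the length trend removed (0 also at an unadjusted p under 0.05) and 1 by DESeq2, against 2, and 0 to 3 when a library was left out. Those called lower numbered 1 with upper-quartile scaling, 5 with the length trend removed and 0 by DESeq2 (3 at an unadjusted p under 0.05, and 8 transcripts without an adjusted p), against 3, and 0 to 5 when a library was left out. Over all genes, 1426 were lower with the length trend removed, against 2351. Of all calls, 45.1% were higher, against 61.0% with upper-quartile scaling and 31.2% with library totals. With the longest transcript as length, summed RPKM in T4A and WT was 23.7 and 21.8 for HOXA, 77.4 and 72.0 for HOXB, 28.5 and 26.9 for HOXC, and 39.9 and 44.7 for HOXD. The labels number the replicates and do not say whether equal numbers were handled together. The replicate differences of T4A and WT had a correlation of -0.0038 over tested genes, which cannot decide this. A replicate block gave 2 HOX transcripts higher and 3 lower, called HAGLR lower (adjusted p = 0.0225), and gave 2012 and 2432 genes in all. The cause of these shifts was not tested. Depth limits HOTTIP most among the calls, with 19 and 13 counts in T4A.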
